A study of Mus musculus with 18 samples.

Results

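The 42 genes described here act in the G2 phase of the cell cycle and in mitosis, and their levels were followed over 18 RNA sequencing libraries of mouse regulatory T cells. They were chosen by name from the biology of cell division, with earlier results of these data known. Each was found once among the 35275 Ensembl identifiers of the expression table. Regulatory T cells are CD4+ lymphocytes that express the transcription factor Foxp3 and hold back other immune cells. Every mouse carried Foxp3-YFP-cre, an allele in which the Foxp3 gene drives both a yellow fluorescent protein (YFP) and the Cre recombinase, and all were males of 6 to 8 weeks with no further treatment named. The 6 groups of 3 were wild type (Foxp3-YFP-cre alone) and mice with floxed Dyrk1, HDAC1, HDAC2, Mef2c or Mef2d genes, so Cre acts in Foxp3+ cells. CD4+ cells were enriched on a column and then sorted on YFP before RNA extraction. The strain background is not given in the sources used here, and "Dyrk1" does not say which kinase gene of that family was floxed. The replicates of a group are stated to be independent and biological.

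Division is driven by the kinase Cdk1 with its A-type and B-type cyclins, and it ends when the anaphase-promoting complex marks those cyclins for destruction. Most transcripts of the machinery accumulate as cells pass from S phase into G2 and mitosis. The MuvB complex, joined by B-Myb (Mybl2) and FoxM1, binds an element called the cell cycle homology region in such promoters, and the factor NF-Y binds CCAAT boxes close to it, while E2F sites are typical of S phase genes. In quiescent cells, MuvB binds instead with E2F4 and the p107 or p130 pocket protein as the repressive DREAM complex. Regulatory T cells are a partly cycling population in the body, and a bulk library averages cycling and resting cells. Fewer cells of a type and less RNA per cell therefore cannot be told apart in these data.

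Library depth, recovered from the steps of the low values, was 15.92 to 24.09 M reads. A median of 77.5 (Cdc25c) to 3800 (Mki67) reads stood behind a member's value, and the lowest single value rested on 48 reads. The 10 regulatory T cell markers had a mean log2(FPKM + 1) of 6.57 to 6.89 in every library, where FPKM is fragments per kilobase of transcript and per 1 M reads. Single markers varied more between libraries, as Lrrc32 did from 16.1 to 81.6 FPKM and Ctla4 from 92.6 to 247. Of the targeted genes, Hdac1 was at 27.8 to 36.5 FPKM in HDAC1 libraries against 117 to 122 in wild type. The gene-level values of the others were not lower under their own label: Hdac2 was at 27.1 to 28.9 against 27.7 to 28.7 FPKM, Mef2c at 0.903 to 1.95 against 0.302 to 0.571, and Mef2d at 52.8 to 53.9 against 37.5 to 46.6. Dyrk1a and Dyrk1b were at 30.8 to 35.9 and 11.0 to 12.6 FPKM in Dyrk1 libraries, above wild type (26 to 28.6 and 6.73 to 7.54). A gene-level value does not see the loss of a single exon, so the groups are called by their labels throughout. The growth protocol also speaks of Rcor1 knockout, while Rcor1 was at 17 to 19.8 FPKM in the deletion groups and 15.2 to 16.1 in wild type.

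Promoters are shown first, because many of the members hold the same letters there. RefSeq promoters (build GRCm38.p6, 250 bases before to 50 after the annotated start) matched 36 of the 42 members by symbol. Of these 36, 27 (75.0%) held CCAAT or its reverse complement ATTGG, against 25 of 39 S phase genes (64.1%), 35 of 54 other mitosis genes (64.8%) and 41.1% of 27025 genes. TTTGAA or TTCAAA, the usual letters of the cell cycle homology region, occurred in 25 of 36 (69.4%) against 20.2% of all genes and 6 of 39 S phase genes (15.4%). The other mitosis genes shared this trait, with 32 of 54 (59.3%). In the 250 bases before the start alone, 23 of those 54 (42.6%) and 11 of the 36 members (30.6%) held these letters. Other forms of the element, TTTAAA and TTCGAA, occurred in 9 (25%) and 4 (11.1%) members, against 14.9% and 1.8% of all genes. The E2F letters TTTCGCG or CGCGAAA were in 1 member promoter (2.8%), in 10 of 39 S phase promoters (25.6%) and in 1.0% of all. In the 250 bases before the start alone, 13 of the 36 members held both CCAAT and a form of the homology region, and 6 held neither. All motifs were searched on both strands. The matches are letters in a fixed window, not measured binding.

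The 250 bases before the start of 4 members show the paired boxes. Capitals mark the NF-Y box and the forms of the homology region given above on either strand, and each sequence reads 5′ to 3′ on the gene's strand.
Ccnb1, chr13:100786487-100786736 (- strand): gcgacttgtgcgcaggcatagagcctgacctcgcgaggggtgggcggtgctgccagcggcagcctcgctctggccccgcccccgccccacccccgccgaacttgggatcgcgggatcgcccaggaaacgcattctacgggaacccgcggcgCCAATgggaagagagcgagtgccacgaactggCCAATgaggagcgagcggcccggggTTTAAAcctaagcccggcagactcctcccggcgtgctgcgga
Ccnb2, chr9:70421555-70421804 (- strand): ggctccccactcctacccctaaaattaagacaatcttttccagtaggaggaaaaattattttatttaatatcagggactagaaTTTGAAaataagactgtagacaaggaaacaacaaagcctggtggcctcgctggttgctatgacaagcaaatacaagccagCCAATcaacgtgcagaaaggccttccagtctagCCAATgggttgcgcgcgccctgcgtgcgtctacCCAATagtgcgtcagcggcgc
Cdk1, chr10:69352913-69353162 (- strand): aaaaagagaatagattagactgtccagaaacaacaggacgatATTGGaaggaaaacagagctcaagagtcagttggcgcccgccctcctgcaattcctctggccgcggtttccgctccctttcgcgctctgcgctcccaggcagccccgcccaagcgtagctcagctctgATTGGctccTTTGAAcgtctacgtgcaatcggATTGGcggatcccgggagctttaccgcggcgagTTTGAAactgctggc
Ube2c, chr2:164769679-164769928 (+ strand): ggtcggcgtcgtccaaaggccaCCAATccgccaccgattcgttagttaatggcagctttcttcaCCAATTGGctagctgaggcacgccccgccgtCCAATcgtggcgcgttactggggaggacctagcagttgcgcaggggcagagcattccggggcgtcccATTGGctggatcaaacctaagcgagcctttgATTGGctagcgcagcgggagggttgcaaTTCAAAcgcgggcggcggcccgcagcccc
In each of the 4, a pair of boxes starts 31 to 33 bases apart: at -99 and -67 in Ccnb1, at -87 and -54 and again at -54 and -21 in Ccnb2, at -80 and -48 in Cdk1, and at -186 and -155 and again at -88 and -57 in Ube2c. Such a pair occurred in 7 of 36 members (19.4%, the others being Aurka, Spc25 and Hmmr), in 1 of 39 S phase genes (2.6%) and in 0.9% of all genes. This spacing was picked after the positions had been seen. The box matches lay within 100 bases of the start most often: 19 members (52.8%) had one at -50 to -1 and 16 (44.4%) at -100 to -51, against 15 of 39 S phase genes (38.5%) in each bin and 9.4% and 13.0% of all genes.

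The cell cycle homology letters were most frequent just after the start. In the first 50 transcribed bases, 16 of 36 members (44.4%) held TTTGAA or TTCAAA, against 2.2% of all genes and 1 of 39 S phase genes (2.6%). The other mitosis genes were not counted by bin. Stretches around the match are shown for 8 of them, with the 6 letters in capitals.
Ccnb2, chr9:70421535-70421560 (- strand): cggcgcggtaTTTGAAtcgcggaccg
Cenpf, chr1:189688069-189688094 (- strand): cggcgggcagTTTGAAtcgctcgtgc
Kif23, chr9:61946782-61946807 (- strand): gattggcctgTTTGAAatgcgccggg
Kif18b, chr11:102925106-102925131 (- strand): gaccggctagTTTGAAcgcgccgcgc
Racgap1, chr15:99651636-99651661 (- strand): ggtgcgtgatTTTGAAccggatctgg
Cenpa, chr5:30666892-30666917 (+ strand): cgggtgatttTTTGAActgctggcga
Plk1, chr7:122159455-122159480 (+ strand): cagcgccgcgTTTGAAttcggggagg
Aurka, chr2:172370523-172370548 (- strand): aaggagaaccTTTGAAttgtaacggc
The first capital lies at position 3 to 33 after the start in these 8 genes. For 33 of the 36 members, bases 26 to 50 after the start were found in an annotated transcript, which checks the strand.

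**Figure D1:**
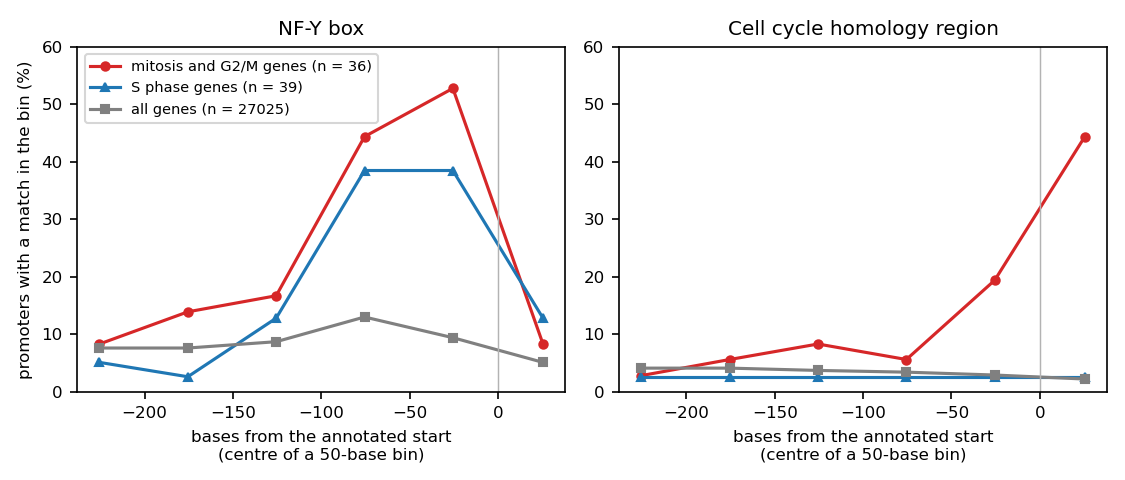
Share of promoters (%) with a match to the NF-Y box (left) or the cell cycle homology region (right) in each 50-base bin, by distance in bases from the annotated start, for 36 mitosis and G2/M genes, 39 S phase genes and 27025 genes in all. The box peaks at 52.8% of the mitosis genes just before the start, and the homology letters reach 44.4% just after it, where all genes stand at 2.2%.

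Across the 18 libraries the members varied together. All 42 were highest, by group mean, in Dyrk1 and lowest in HDAC2. The order Dyrk1, wild type, HDAC1, Mef2d, Mef2c, HDAC2 held for 23 members, the same order with Mef2c above Mef2d for 13, and HDAC1 stood above wild type for 5 (Mki67, Pbk, Cenpe, Cenpf and Anln). In single libraries, 22 members peaked in Dyrk1 replicate 1, 16 in Dyrk1 replicate 3 and 4 (Ccnb1, Cdc20, Ube2c and Aurka) in wild type replicate 3. The lowest library was HDAC2 replicate 1 for 36 members, HDAC2 replicate 3 for 5 and Mef2c replicate 2 for Cenpa. An F test over the 6 groups (limma, adjusted over 12223 genes) called 42 of 42 members, against 38.6% of all genes tested.

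**Figure D2:**
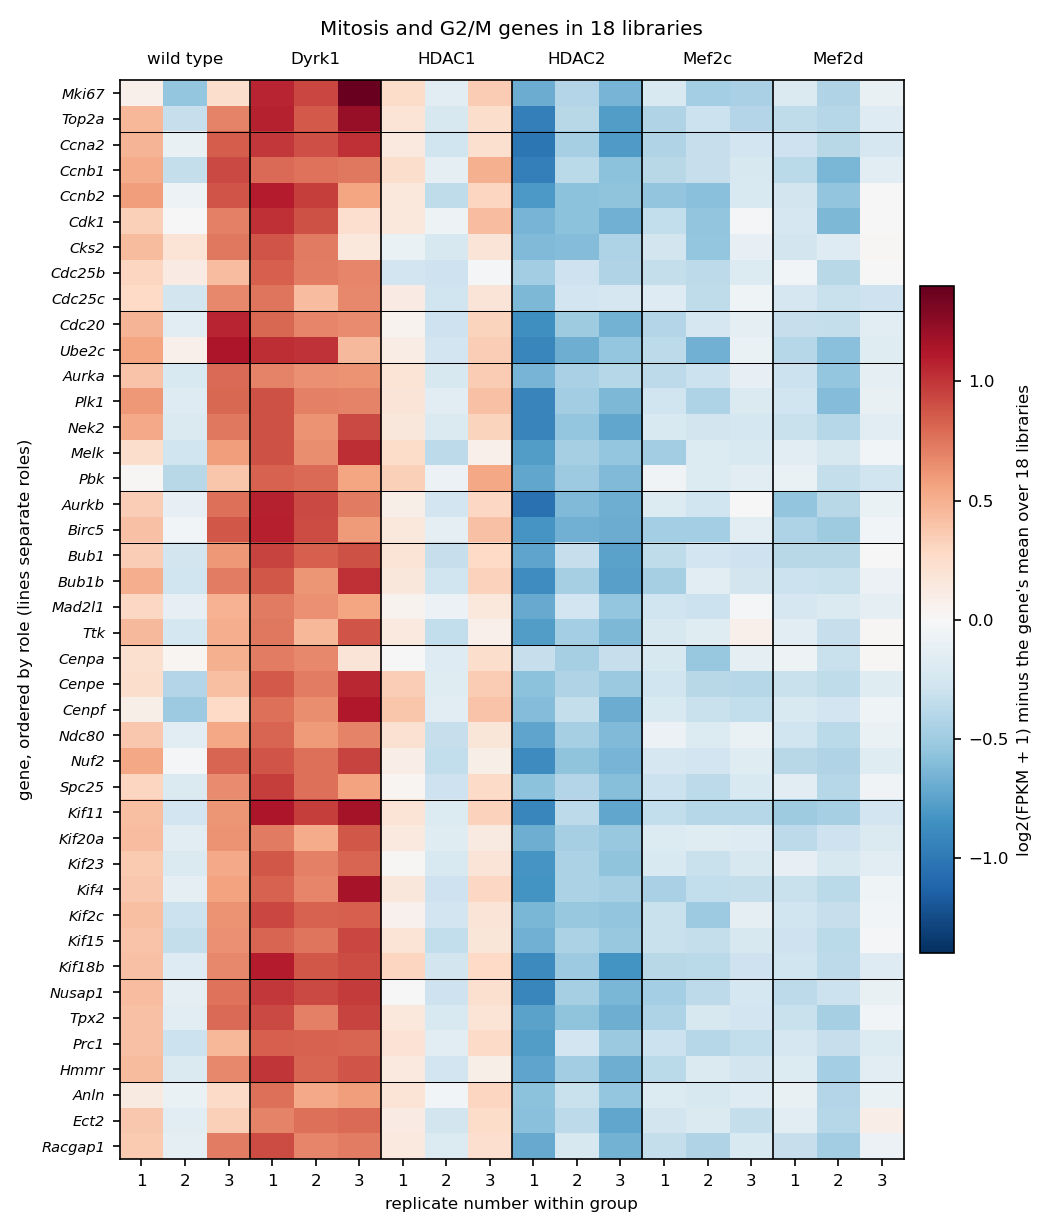
Level of each of the 42 genes in each library as log2(FPKM + 1) minus the gene's mean over 18 libraries, with genes ordered by role and libraries by group and replicate number. The Dyrk1 columns are red and the HDAC2 columns blue for every gene, and wild type replicate 2 lies below replicates 1 and 3 for every gene.

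Mki67 (chr7:135689784-135716361 in GRCm38, minus strand), which encodes the Ki-67 coat protein of mitotic chromosomes, was at 21.2, 13.4 and 23.96 FPKM in wild type, 43.1, 39.3 and 54.1 in Dyrk1, 24.2, 17.8 and 25.9 in HDAC1, 12.01, 14.8 and 12.4 in HDAC2, 17.2, 14.1 and 14.4 in Mef2c, and 17.3, 14.8 and 18.6 in Mef2d. Its Dyrk1 libraries lay above all the others, and its wild-type and HDAC1 libraries overlapped. Top2a (chr11:98992943-99024189, minus strand), the topoisomerase that untangles sister chromatids, was at 55.2, 31.4 and 64.6 FPKM in wild type, 84.7, 72.8 and 93.3 in Dyrk1, 45.3, 33.7 and 47.2 in HDAC1, 19.8, 30.002 and 22.5 in HDAC2, 29.2, 31.9 and 29.6 in Mef2c, and 30.7, 29.7 and 34.7 in Mef2d. The Dyrk1 libraries were again above all the rest, while HDAC2 libraries were below every wild-type library and Mef2c and Mef2d overlapped only with wild type replicate 2.

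Among the cyclins and the proteins that set Cdk1 activity, the A-type cyclin Ccna2 was at 20.9, 13.6 and 27.3 FPKM in wild type, 30.1, 28.5 and 30.9 in Dyrk1, 16.2, 11.95 and 17.4 in HDAC1, 6.78, 10.4 and 8.05 in HDAC2, 10.7, 11.6 and 12.04 in Mef2c, and 11.8, 10.98 and 12.4 in Mef2d. Every Dyrk1 library exceeded, and every HDAC2, Mef2c and Mef2d library fell short of, all 3 wild-type libraries. The B-type cyclin Ccnb2 was at 26.8, 16.7 and 33.2 FPKM in wild type, 38.7, 35.2 and 26.3 in Dyrk1, 19.6, 13.5 and 21.9 in HDAC1, 9.59, 11.4 and 11.6 in HDAC2, 11.7, 11.3 and 15.02 in Mef2c, and 14.5, 11.7 and 17.6 in Mef2d. Dyrk1 replicate 3 lay between wild-type libraries, and HDAC2 and Mef2c lay below all of them. Cks2, a small subunit that docks Cdk1 onto its substrates, was at 43.2, 36.1 and 53.2 FPKM in wild type, 58.6, 52.6 and 35.02 in Dyrk1, 29.3, 26.8 and 35.7 in HDAC1, 20.1, 20.3 and 23.03 in HDAC2, 26.2, 21.2 and 28.95 in Mef2c, and 26.02, 27.6 and 31.8 in Mef2d. Dyrk1 replicate 1 lay above every wild-type library, replicate 2 among them and replicate 3 just below them, and the other 4 groups lay below all of wild type. Cdc25b (chr2:131186949-131198497, plus strand), the phosphatase that gives Cdk1 its first activation, was at 33.96, 29.8 and 37.4 FPKM in wild type, 49.6, 45.6 and 44.5 in Dyrk1, 22.5, 22.2 and 26.98 in HDAC1, 19.3, 22.2 and 20.3 in HDAC2, 21.6, 21.1 and 23.9 in Mef2c, and 26.7, 20.7 and 27.3 in Mef2d. Its Dyrk1 libraries were above, and those of the other 4 groups below, every wild-type library.

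The remaining members of this set were lower. Ccnb1 ran from 5.57 (HDAC2 replicate 1) to 23.3 FPKM (wild type replicate 3), Cdk1 from 3.90 (HDAC2 replicate 3) to 14.8 (Dyrk1 replicate 1), and Cdc25c, another Cdk1-activating phosphatase, from 1.07 (HDAC2 replicate 1) to 4.39 (Dyrk1 replicate 1).

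For exit from mitosis, Cdc20, the activator that brings substrates to the anaphase-promoting complex, was at 35.7, 22.7 and 53.9 FPKM in wild type, 45.01, 41.3 and 40.5 in Dyrk1, 26.1, 20.5 and 31.7 in HDAC1, 13.5, 17.7 and 15.6 in HDAC2, 18.9, 21.3 and 22.99 in Mef2c, and 20.1, 19.9 and 22.6 in Mef2d. Ube2c (chr2:164769898-164778822, plus strand), the ubiquitin-conjugating enzyme of that complex, was at 20.9, 14.7 and 31.6 FPKM in wild type, 29.5, 29.1 and 19.4 in Dyrk1, 15.1, 11.4 and 17.9 in HDAC1, 6.902, 8.27 and 9.23 in HDAC2, 10.5, 8.37 and 12.9 in Mef2c, and 10.3, 8.97 and 12.3 in Mef2d. In both genes wild type replicate 3 was the highest of all 18 libraries, so Dyrk1 overlapped with wild type, and every HDAC2 library lay below every wild-type one.

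The mitotic kinase Plk1, which acts at centrosomes, kinetochores and the midbody, was at 20.3, 11.4 and 23.3 FPKM in wild type, 24.95, 21.7 and 21.7 in Dyrk1, 14.8, 11.6 and 17.5 in HDAC1, 6.33, 9.001 and 8.04 in HDAC2, 10.5, 9.32 and 11.1 in Mef2c, and 10.5, 8.16 and 11.96 in Mef2d. Aurka, the spindle pole kinase, was at 11.2, 6.99 and 15.01 FPKM in wild type, 13.97, 13.5 and 13.4 in Dyrk1, 9.604, 6.91 and 10.8 in HDAC1, 4.91, 5.75 and 6.04 in HDAC2, 6.21, 6.52 and 7.54 in Mef2c, and 6.52, 5.38 and 7.43 in Mef2d. Both overlapped between Dyrk1 and wild type, and the HDAC2 libraries of both were below all 3 wild-type libraries. Pbk, a kinase made in mitotic cells, was at 4.85, 3.42 and 6.62 FPKM in wild type, 9.26, 9.03 and 7.52 in Dyrk1, 6.31, 4.48 and 7.42 in HDAC1, 2.49, 3.09 and 2.77 in HDAC2, 4.59, 4.07 and 4.204 in Mef2c, and 4.46, 3.62 and 3.79 in Mef2d. Its Dyrk1 libraries were above every other library, and HDAC1 overlapped with wild type on the upper side. Nek2 ran from 3.21 to 14.1 FPKM and Melk from 2.49 to 11.3, each between HDAC2 replicate 1 and Dyrk1 replicate 3.

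Of the chromosomal passenger complex, which corrects faulty attachments of chromosomes to the spindle, the kinase Aurkb was at 17.3, 12.3 and 23.6 FPKM in wild type, 29.5, 26.2 and 22.9 in Dyrk1, 14.2, 10.96 and 16.5 in HDAC1, 6, 8.37 and 7.98 in HDAC2, 11.6, 10.9 and 13.4 in Mef2c, and 8.803, 10.02 and 12.5 in Mef2d. Its partner Birc5 (survivin) was at 10.4, 7.298 and 14.6 FPKM in wild type, 17.2, 15.1 and 11.9 in Dyrk1, 8.46, 6.81 and 10.3 in HDAC1, 3.82, 4.34 and 4.27 in HDAC2, 5.14, 5.16 and 6.67 in Mef2c, and 5.31, 5.05 and 7.35 in Mef2d. In both, wild type replicate 3 exceeded Dyrk1 replicate 3, and all HDAC2 libraries lay below all wild-type ones.

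In the spindle checkpoint, which delays anaphase until chromosomes are attached, Mad2l1 was at 22.1, 16.4 and 25.4 FPKM in wild type, 30.3, 28.4 and 26.6 in Dyrk1, 18.6, 16.9 and 19.9 in HDAC1, 10.6, 14.7 and 11.96 in HDAC2, 14.5, 14.3 and 17.6 in Mef2c, and 15.1, 15.5 and 16.3 in Mef2d. Its Dyrk1 libraries were above, and its HDAC2 libraries below, every wild-type library. The checkpoint kinase-like protein Bub1b was at 19.2, 10.7 and 22.4 FPKM in wild type, 24.9, 20.7 and 27.9 in Dyrk1, 14.9, 10.7 and 16.7 in HDAC1, 6.79, 9.29 and 7.36 in HDAC2, 9.26, 11.7 and 10.8 in Mef2c, and 10.6, 10.5 and 12.4 in Mef2d. Dyrk1 replicate 2 fell below wild type replicate 3. Bub1 ran from 2.31 (HDAC2 replicate 3) to 9.70 FPKM (Dyrk1 replicate 1), and the kinase Ttk from 1.15 (HDAC2 replicate 1) to 5.77 (Dyrk1 replicate 3).

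At the centromere and kinetochore, Cenpa, the histone H3 variant that marks centromeres, was at 45.5, 39.3 and 55.1 FPKM in wild type, 64.3, 62.1 and 43.8 in Dyrk1, 38.6, 33.97 and 45.9 in HDAC1, 30.7, 27.8 and 30.8 in HDAC2, 32.9, 26.4 and 35.2 in Mef2c, and 36.7, 30.9 and 39.1 in Mef2d. Its ratio of the highest to the lowest library, 2.44, was the smallest of the 42, and Dyrk1 replicate 3 lay among the wild-type libraries. Ndc80, which binds microtubules, was at 12.6, 8.43 and 14.4 FPKM in wild type, 17.6, 14.9 and 16.1 in Dyrk1, 11.2, 7.45 and 10.9 in HDAC1, 5.33, 6.62 and 5.88 in HDAC2, 8.96, 8.23 and 8.897 in Mef2c, and 7.72, 7.11 and 8.87 in Mef2d. Its partner Nuf2 was at 10.6, 6.92 and 13.03 FPKM in wild type, 13.7, 12.6 and 14.4 in Dyrk1, 7.52, 5.29 and 7.44 in HDAC1, 3.35, 4.401 and 4.07 in HDAC2, 5.78, 5.62 and 6.12 in Mef2c, and 5.09, 4.96 and 6.12 in Mef2d. Dyrk1 lay above wild type for Ndc80 and overlapped for Nuf2, and HDAC2 lay below wild type for both. Cenpf, a large kinetochore protein, was at 2.81, 1.52 and 3.36 FPKM in wild type, 5.13, 4.62 and 6.82 in Dyrk1, 3.71, 2.23 and 3.74 in HDAC1, 1.36, 1.84 and 1.22 in HDAC2, 2.11, 1.897 and 1.83 in Mef2c, and 2.11, 1.99 and 2.44 in Mef2d. Its HDAC1 libraries overlapped with wild type, and its HDAC2 libraries overlapped with wild type replicate 2. Spc25, of the same microtubule-binding complex as Ndc80 and Nuf2, ran from 2.78 to 10.2 FPKM, and the kinesin-like motor Cenpe from 2.33 to 9.28.

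Among the kinesins, Kif11 (Eg5), the motor that pushes spindle poles apart, was at 17.9, 10.7 and 20.6 FPKM in wild type, 29.9, 26.7 and 30.7 in Dyrk1, 15.1, 11.4 and 16.7 in HDAC1, 6.51, 9.93 and 7.52 in HDAC2, 10.1, 9.71 and 9.73 in Mef2c, and 8.96, 9.24 and 10.7 in Mef2d. Kif23, a motor of the central spindle, was at 10.1, 6.51 and 11.5 FPKM in wild type, 14.8, 13.1 and 14.3 in Dyrk1, 7.75, 6.48 and 8.79 in HDAC1, 3.89, 5.36 and 4.86 in HDAC2, 6.44, 5.96 and 6.396 in Mef2c, and 6.98, 6.39 and 6.75 in Mef2d. Both had Dyrk1 above and HDAC2 below all wild-type libraries. The other 5 kinesins spanned 3.44 to 11.96 FPKM (Kif20a), 1.57 to 9.23 (Kif4), 2.76 to 10.2 (Kif2c), 3.55 to 12.9 (Kif15) and 2.38 to 12.5 (Kif18b).

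Of the spindle microtubule binders, Prc1, which bundles antiparallel microtubules, was at 13.1, 7.58 and 13.6 FPKM in wild type, 17.9, 17.7 and 17.6 in Dyrk1, 11.2, 8.56 and 11.8 in HDAC1, 5.18, 7.81 and 6.41 in HDAC2, 7.604, 7.03 and 7.34 in Mef2c, and 8.01, 7.45 and 8.25 in Mef2d. Tpx2, which activates Aurka on the spindle, was at 12.4, 8.004 and 16.4 FPKM in wild type, 18.04, 15.5 and 18.4 in Dyrk1, 10.1, 7.72 and 10.5 in HDAC1, 5.01, 5.81 and 5.26 in HDAC2, 6.47, 7.62 and 7.37 in Mef2c, and 7.11, 6.28 and 8.78 in Mef2d. Dyrk1 lay above wild type for Prc1, and for Tpx2 wild type replicate 3 exceeded Dyrk1 replicate 2. Nusap1 ran from 4.19 to 18.4 FPKM and Hmmr from 2.63 to 11.1. In cytokinesis, Racgap1, the GTPase-activating partner of Kif23, was at 18.4, 12.8 and 23.8 FPKM in wild type, 27.5, 23.2 and 23.8 in Dyrk1, 15.6, 12.2 and 16.8 in HDAC1, 8.26, 11.97 and 8.58 in HDAC2, 11.01, 10.3 and 11.99 in Mef2c, and 11.1, 9.81 and 13.3 in Mef2d. Ect2, the exchange factor that starts the contractile ring, was at 5.37, 3.42 and 5.17 FPKM in wild type, 6.93, 7.34 and 7.49 in Dyrk1, 4.303, 3.105 and 4.87 in HDAC1, 2.27, 2.81 and 1.97 in HDAC2, 3.11, 3.25 and 2.88 in Mef2c, and 3.41, 2.72 and 4.21 in Mef2d. Ect2 had Dyrk1 above and HDAC2 below all wild-type libraries. Racgap1 had HDAC2 below, and its Dyrk1 replicate 2 lay just under wild type replicate 3. Anln, an actin-binding scaffold of the ring, was the lowest member, from 0.727 (HDAC2 replicate 1) to 3.40 FPKM (Dyrk1 replicate 1), and the only one under 1 FPKM in any library (HDAC2 replicates 1 and 3 and Mef2d replicate 2).

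As a score, the mean of log2(FPKM + 1) over the 42 members was 3.66, 3.10 and 3.93 in wild type, 4.17, 4.03 and 4.07 in Dyrk1, 3.42, 3.05 and 3.54 in HDAC1, 2.52, 2.83 and 2.68 in HDAC2, 2.97, 2.94 and 3.07 in Mef2c, and 3.01, 2.89 and 3.18 in Mef2d. The Dyrk1 scores were above those of all 15 other libraries, and the HDAC2 scores were below them all. Wild type replicate 2 and HDAC1 replicate 2 stood among the Mef2c and Mef2d libraries. Wild type was the most scattered group. Between its replicates 3 and 2 all 42 members were higher in replicate 3, by a ratio of 1.25 (Cdc25b) to 2.55 (Ccnb1) with a median of 2.00, while 46.1% of all genes tested were higher there. In HDAC1 the same held between replicates 3 and 2, with ratios of 1.18 (Mad2l1) to 1.68 (Cenpf), and in Mef2d between replicates 3 and 2, with 1.02 (Cdc25c) to 1.68 (Cdk1).

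Each member tracked the others. Pearson's r between a member and the mean of the other 41 over the 18 libraries ran from 0.897 (Cks2) and 0.907 (Cenpa) to 0.993 (Ccna2) and 0.994 (Kif18b). For deviations from the group means, the values ran from 0.607 (Cks2) and 0.613 (Cenpa) to 0.976 (Ccnb1). These are descriptions over libraries that share depth and groups. Of all 12223 genes tested, 241 had r above 0.9 with the member mean, among them all 42 members. Among the genes outside the list with the highest r were Uhrf1 (0.993), which acts in DNA methylation upkeep, and Spag5, Mybl2, Cip2a, Pclaf, Espl1, Cdca8, Rrm2 and Ckap2l, the last 8 with r of 0.990 to 0.987.

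**Figure D3:**
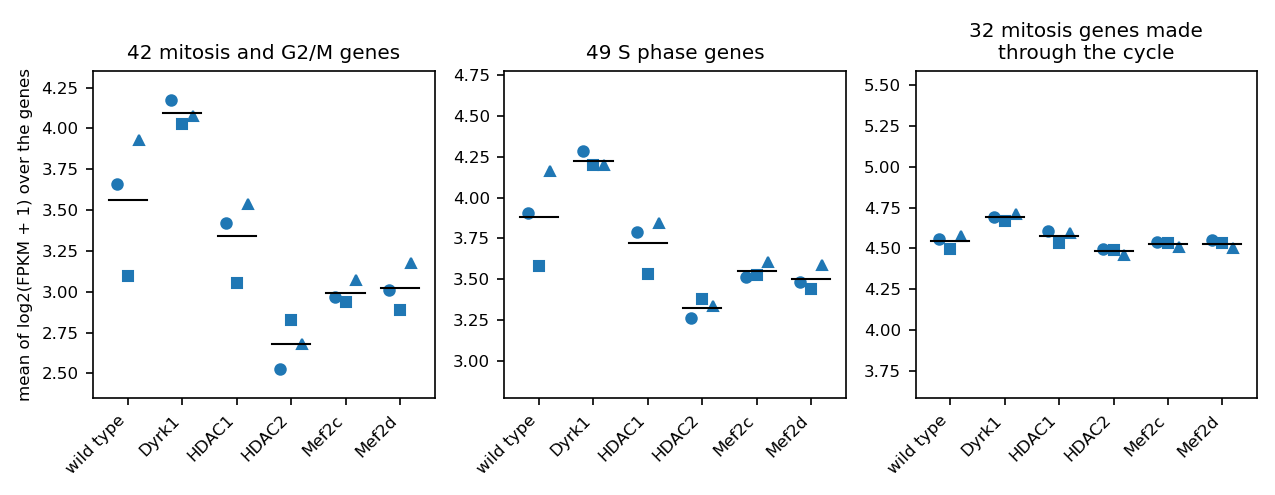
Mean of log2(FPKM + 1) in each library for the 42 mitosis and G2/M genes, 49 S phase genes and 32 mitosis genes that are made through the whole cycle, with circles, squares and triangles for replicates 1, 2 and 3 and a line at the group mean. The axes span equal heights, and the set made through the cycle stays within a narrower band than the 42.

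Libraries labelled Dyrk1 had more of the mitotic transcripts than wild type. Of the 42 members, 20 were called higher and 0 lower, against 11.1% and 6.19% of all genes tested (limma, adjusted p under 0.05). The log2 difference was positive for all 42. The kinesins (6 of 7), the spindle microtubule binders (3 of 4), both chromosome genes and 2 of 3 cytokinesis genes passed, while both partners of the anaphase-promoting complex and both chromosomal passenger genes did not. Only 1 of 7 genes of the cyclin and Cdk1 set passed, Cdc25b. In 22 members all 3 Dyrk1 libraries were above all 3 wild-type libraries, against 17.8% of genes. The median log2 difference of the 42 was 0.51, against 0.02 over all genes.

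Mki67 rose the most, from 19.5 ± 5.45 to 45.5 ± 7.66 FPKM (mean ± SD, n = 3), a log2 difference of 1.2 ± 0.19 (SE), adjusted p = 0.00121. Cenpf went from 2.56 ± 0.945 to 5.52 ± 1.15 FPKM, a log2 difference of 0.89 ± 0.19 (SE), adjusted p = 0.00782. Both are among the longest transcripts of the list. Kif11 followed at 0.84 (adjusted p = 0.0105), Cenpe at 0.79 (0.00965), Top2a at 0.77 (0.0238) and Pbk at 0.72 (0.0132). Cdc25b had a smaller log2 difference, 0.46, with little spread (adjusted p = 0.0123). At the other end stood Cks2 at 0.13 (0.666), Cdc20 at 0.25 (0.458), Ube2c at 0.25 (0.514) and Cenpa at 0.27 (0.262), which did not pass.

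The count rested on single libraries. It fell to 7 when either wild type replicate 2 or Dyrk1 replicate 3 was left out and rose to 31 when wild type replicate 3 was. It was 12 and 13 without Dyrk1 replicates 1 and 2, and 0 in a fit of these 6 libraries alone.

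Dyrk1 replicate 3 differed from its group by transcript length. Against the mean of the other Dyrk1 libraries, the 14 shortest members had a median log2 difference of -0.19 there and the 14 longest of 0.15. Over all genes, the third with the shortest transcripts had a median of -0.20 and the third with the longest 0.07. In Dyrk1 against wild type the 14 shortest members had a median of 0.40 and the 14 longest 0.61. With the trends of level on length and GC content removed from each library, an alternative added after the data had been seen, 10 members passed: Mki67 (1.06, adjusted p = 0.00247), Pbk (0.75), Kif11 (0.71), Kif18b (0.69), Cenpf (0.67), Melk (0.67), Cenpe (0.65), Aurkb (0.63), Kif2c (0.61) and Cdc25b (0.48, adjusted p = 0.00639).

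Markers of B cells were high in 1 library of this group. Dyrk1 replicate 1 had a summed level of 406 FPKM over the 10 B cell markers, against 35.4 and 30.2 in the other Dyrk1 libraries and 29.3 to 48.8 in wild type, and none of the 10 was at 0 in any library. Leaving out the 3 libraries highest in these markers (Dyrk1, Mef2c and Mef2d replicate 1) gave 7 higher members. Dyrk1 replicate 1 was also the highest Dyrk1 library in summed myeloid markers, at 503 FPKM against 33.4 and 31.1 in replicates 2 and 3 and 16.6 to 203 in wild type. Its CD8 T and NK cell markers summed to 217 FPKM, against 100.6 and 88.6 in those replicates and 82.5 to 127.5 in wild type. Of 3 germinal centre B cell markers tested, 2 were called higher in Dyrk1 and 0 lower, against 11.1% and 6.19% of all genes. Over the full list of 7, summed levels were 37.1 to 44.1 FPKM in Dyrk1 and 35.9 to 39.4 in wild type. Rgs13, from that list, was at 0.964 FPKM at most, in Dyrk1 replicate 1, and at 0 in 8 libraries. The part of such cells in the members' levels was not tested. Erythroid markers, summed, were at 6.74 to 41.9 FPKM in Dyrk1 and 26 to 390 in wild type, and the erythroid factor Klf1 was at 0 in 6 libraries and at most 0.189.

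Libraries labelled HDAC2 had negative log2 differences from wild type for all 42 members. After adjustment 40 of 42 were called lower and 0 higher (limma, adjusted p under 0.05), against 9.41% and 16.1% of all genes tested. In 38 members all 3 HDAC2 libraries lay below all 3 wild-type libraries, against 18% of genes. The median log2 difference was -0.86, against 0.05 over all genes, and the ratio of means had a median of 0.479. All 7 genes of the cyclin and Cdk1 set, all 7 kinesins, all 5 mitotic kinases, all 4 checkpoint genes, all 4 microtubule binders and all 3 cytokinesis genes passed.

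Ube2c fell the most, from 22.4 ± 8.55 to 8.13 ± 1.17 FPKM, a log2 difference of -1.3 ± 0.24 (SE), adjusted p = 0.00328. Ccna2 went from 20.6 ± 6.84 to 8.397 ± 1.81 FPKM, a log2 difference of -1.17 ± 0.19 (SE), adjusted p = 0.00251. These are the ubiquitin-conjugating enzyme of the anaphase-promoting complex and a cyclin that the complex marks for destruction. Nuf2 had -1.15 ± 0.17 (SE), adjusted p = 0.00195. Birc5 was at -1.15 (0.00289), Cdc20 at -1.13 (0.00372), Ccnb2 at -1.11 (0.00474) and Aurkb at -1.11 (0.0029). On the log2(FPKM + 1) scale, which understates low genes, the smallest differences that passed were Anln at -0.58 and Cenpe at -0.59. By ratio of means Anln (0.481) was near the median of 0.479. Cenpa (0.638) was then the closest to wild type among the genes that passed. Mki67 (-0.51, adjusted p = 0.0578) and Cenpf (-0.5, adjusted p = 0.0695) did not pass, and both had unadjusted p under 0.05. With the length and GC trends removed they stood at -0.68 (adjusted p = 0.0156) and -0.76 (0.0126), and all 42 passed.

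With wild type replicate 3 left out 29 passed, and with any other of the 6 libraries left out 36 to 42 did. Plasma cell markers were high in this group: 8 of 10 were called higher, with summed levels of 3742 to 12020 FPKM in HDAC2 and 713 to 1981 in wild type. They were not high in HDAC2 alone, since HDAC1 libraries had 2345 to 7148 FPKM, with 2 of 10 called higher than in wild type. HDAC2 replicate 2 was highest in Jchain, Igha and Sdc1. None of the 10 was at 0 in any library, and their part in the members' levels was not tested. Among the 3 HDAC2 libraries, the highest plasma cell sum and the highest member score, 2.83, were in the same library. In HDAC1 the markers Mzb1 and Tnfrsf17 were highest in replicate 2, which had that group's lowest member score, 3.05.

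Libraries labelled Mef2c and Mef2d were both compared with the same 3 wild-type libraries, so their differences share those values. The log2 differences of all 42 members were negative in both groups. In Mef2c 24 members were called lower and 0 higher (limma, adjusted p under 0.05), against 6.06% and 12.9% of all genes. All Mef2c libraries lay below all wild-type ones for 24 members (12.8% of genes). In Mef2d 22 were called lower and 0 higher, against 7.95% and 13.9%, and 10 lay wholly below wild type (16.3% of genes). The median log2 differences were -0.58 and -0.56, against 0.04 over all genes in both. By name, 18 members passed in both, 6 in Mef2c alone and 4 in Mef2d alone (Ccnb1, Aurka, Aurkb and Ndc80), and the 18 also passed in HDAC2.

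Ube2c again had the largest difference, with 10.6 ± 2.29 FPKM in Mef2c (log2 difference -0.96 ± 0.24 (SE), adjusted p = 0.0138) and 10.5 ± 1.66 in Mef2d (-0.97 ± 0.24 (SE), adjusted p = 0.0131). Next in Mef2c was Ccnb2, at 12.7 ± 2.04 FPKM (-0.92 ± 0.23 (SE), adjusted p = 0.0137). Next in Mef2d was Nuf2, at 5.39 ± 0.632 FPKM (-0.77 ± 0.17 (SE), adjusted p = 0.00615). Cdc25b had the smallest p in Mef2c, with -0.58 ± 0.11 (SE), adjusted p = 0.00235, and in Mef2d it had -0.43 ± 0.11 (SE), adjusted p = 0.0141. All 4 microtubule binders and 6 of 7 kinesins passed in Mef2c, and 3 of 4 and 3 of 7 in Mef2d. Both anaphase-promoting complex partners passed in each group. On the log2(FPKM + 1) scale, Pbk (-0.14 and -0.24), Cenpf (-0.24 and -0.13), Mki67 (-0.31 and -0.17) and Anln (-0.30 and -0.31) were closest to wild type and did not pass in either. Anln is a low gene, which this scale understates. Its ratios of means were 0.699 in Mef2c and 0.702 in Mef2d, against medians of 0.609 and 0.625 for the members.

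Both counts turned on the wild-type libraries. For Mef2c the count was 7, 40 and 1 without wild type replicates 1, 2 and 3, and 4 and 6 without Mef2c replicates 1 and 2. For Mef2d it was 3, 38 and 1, and then 3 and 2 without Mef2d replicates 1 and 2. Fits of the 6 libraries alone gave 3 in each, and fits that left out the 3 libraries highest in B cell markers gave 2 in each. Summed B cell markers were at 62.4 to 129.7 FPKM in Mef2c and 50.6 to 182.7 in Mef2d. Of 6 erythroid markers tested, 0 had a positive log2 difference in either group and 1 was called lower in each, with summed levels of 15.3 to 52.8 FPKM in Mef2c and 13.3 to 55.8 in Mef2d against 26 to 390 in wild type. Of 6 gamma-delta T and NKT cell markers tested, 3 were called lower in Mef2d and 0 in Mef2c, with summed levels of 22 to 28.5 FPKM in Mef2d, 37.8 to 53.4 in Mef2c and 33.9 to 68.8 in wild type. The part of these cells in the members' levels was not tested.

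Libraries labelled HDAC1 gave few calls against wild type. The test called 1 of 42 lower and 0 higher, against 2.32% and 10.2% of all genes, and 4 had unadjusted p under 0.05. The median log2 difference was -0.23, against 0.05 over all genes, and 37 of 42 were negative. The 95% interval of the difference included 0 for 38 members, with bounds from -1.04 to 0.67 over the list, which for some genes still holds differences of the size measured in HDAC2. Cdc25b was the member that passed, from 33.7 ± 3.78 to 23.9 ± 2.68 FPKM, a log2 difference of -0.48 ± 0.11 (SE), adjusted p = 0.0135. Cks2 (-0.51, adjusted p = 0.0744) also had all HDAC1 libraries below wild type, and Cdc25b and Cks2 were 2 of 42 with that pattern (10.8% of genes). Pbk and Cenpf (both 0.26) and Mki67 (0.22) were on the other side of 0. Lower members numbered 17 with wild type replicate 2 left out and 0 without wild type replicate 3, HDAC1 replicate 1 or HDAC1 replicate 2.

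**Figure D4:**
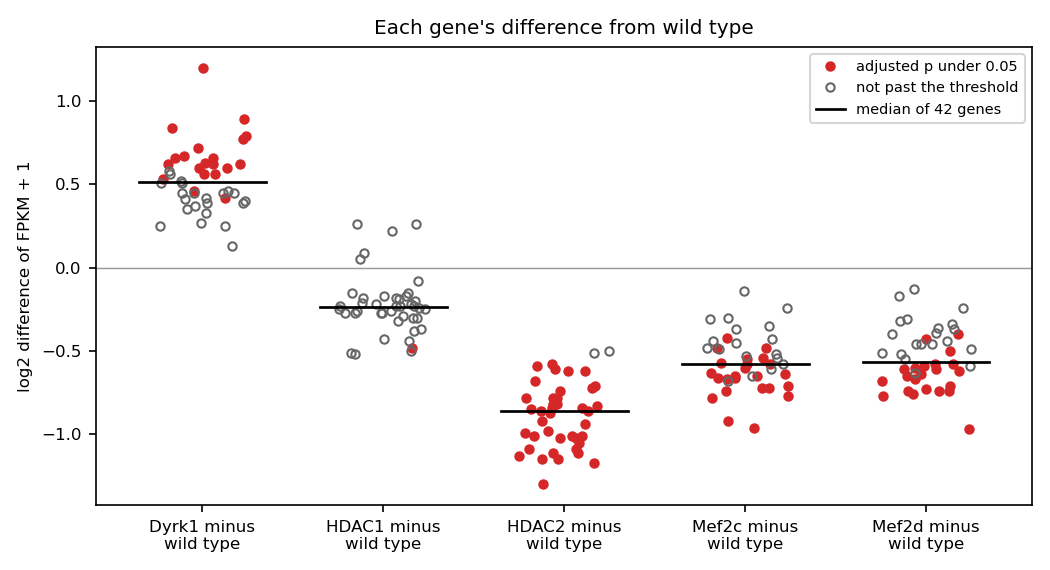
Log2 difference of FPKM + 1 from wild type for each of the 42 genes in the 5 deletion groups, filled where limma's adjusted p is under 0.05, with a line at the median of the 42. Medians are 0.51 in Dyrk1, -0.23 in HDAC1, -0.86 in HDAC2, -0.58 in Mef2c and -0.56 in Mef2d, and all 5 comparisons share the same wild-type libraries.

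**Figure D5:**
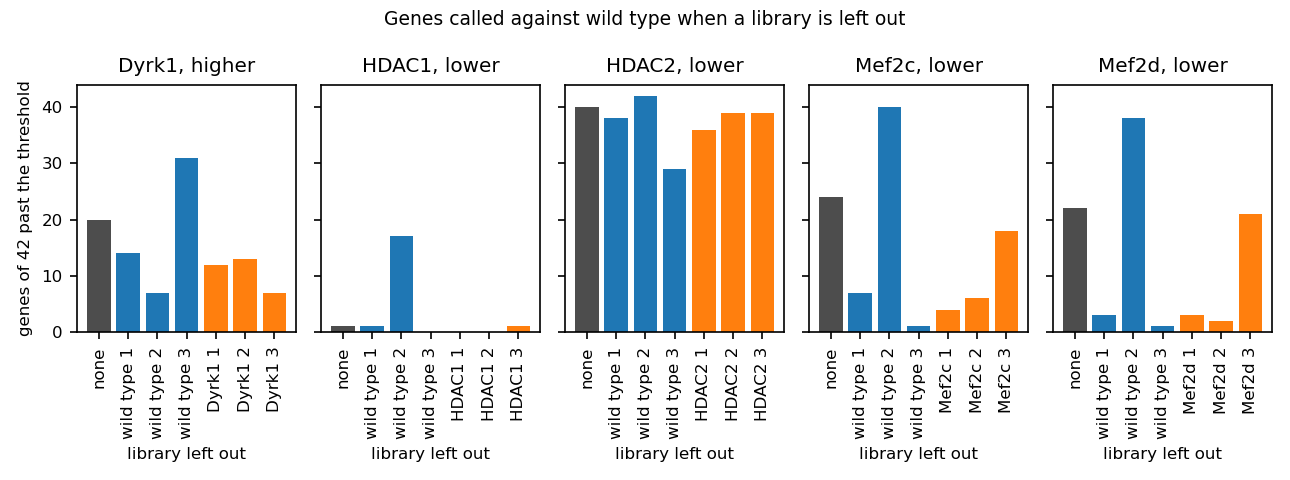
Number of the 42 genes past the threshold against wild type (higher for Dyrk1, lower for the others) with no library left out and with each of the 6 libraries left out in turn. HDAC2 stays between 29 and 42, while Mef2c runs from 1 to 40 and Mef2d from 1 to 38.

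HDAC1 and HDAC2 encode closely related histone deacetylases, and the libraries under those labels were compared directly. Levels were higher in HDAC1 than in HDAC2 for all 42 members by group mean, and in 40 all 3 HDAC1 libraries lay above all 3 HDAC2 libraries, against 12.9% of genes. After adjustment 5 passed as higher and 0 as lower, against 1.06% and 0.442% of genes (1.5% in either direction), while 40 had unadjusted p under 0.05. The median log2 difference was 0.65. Pbk had 0.88 ± 0.17 (SE), adjusted p = 0.02, with 6.07 ± 1.48 FPKM in HDAC1 and 2.79 ± 0.298 in HDAC2. Birc5 had 0.87 ± 0.21 (SE), adjusted p = 0.0485, with 8.53 ± 1.76 and 4.14 ± 0.281 FPKM. The others were Kif18b (0.86, 0.0371), Nek2 (0.82, 0.0495) and Anln (0.63, 0.02). Cdc25b and Cdc25c were the members whose libraries overlapped. Of 6 gamma-delta T and NKT cell markers tested, 6 had a positive difference, 5 with HDAC1 libraries wholly above HDAC2, and 0 passed after adjustment (limma; 5 had unadjusted p under 0.05). Their summed levels were 67.6 to 94.2 FPKM in HDAC1 and 30.5 to 55.5 in HDAC2, and their part in the members' levels was not tested. With the replicate number as a block, 12 passed. The count was 15 without HDAC1 replicate 2, and 0 without HDAC1 replicate 1 or 3 or HDAC2 replicate 1 or 3.

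Mef2c and Mef2d libraries, in which genes of the same transcription factor family were targeted, were not distinguished by these genes. The test called 0 of 42 in either direction (limma; 0 also had unadjusted p under 0.05), against 1.6% higher and 1.46% lower among all genes (3.06% in either direction). Kif20a alone had all Mef2c libraries above all Mef2d libraries (10.2% of genes), and 0 members had them below (8.45%). The ratio of means ran from 0.870 (Ccnb2) to 1.15 (Aurkb), the median log2 difference was -0.04, and the 95% intervals of all 42 included 0, with bounds from -0.67 to 0.62 and a median margin of 0.40 on either side. Differences within those bounds remain possible.

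The widest contrast was between Dyrk1 and HDAC2, the groups at the ends of the order, and it uses no wild-type library. The pair was picked with the levels known, so its differences describe the ends of a ranking. All 42 members were called higher in Dyrk1 (7.89% of genes) and 0 lower (9.47%), with all Dyrk1 libraries above all HDAC2 libraries for all 42 (13.6% of genes), and 42 passed without any one of the 6 libraries. The ratio of means ran from 1.91 (Cenpa) to 4.07 (Kif18b), with a median of 3.16. Top2a and Kif11 had the largest log2 differences, 1.76 ± 0.21 (SE), adjusted p = 8.85e-05 and 1.76 ± 0.19 (SE), adjusted p = 5.5e-05. Cenpa, Cdc25c and Anln had the smallest, 0.89, 1.00 and 1.11. The log2(FPKM + 1) scale understates low genes, and by ratio of means Anln (3.49) lay above the median.

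Mki67 took a different share of the list from group to group. It made up 3.17% of the members' summed FPKM in wild type (group mean) and 5.24% in Dyrk1, 4.57% in HDAC1, 4.35% in HDAC2, 4.05% in Mef2c and 4.29% in Mef2d. A lowest share in wild type was not particular to Mki67. Cenpf had 0.408% in wild type and 0.487% to 0.645% in the other groups. Cenpe had 0.707% in wild type and 0.765% to 0.939% in the others. Mki67 had the largest rise in Dyrk1, and Mki67 and Cenpf were the 2 genes that did not pass in HDAC2. Length moved with this: over all genes, the third with the longest transcripts had median log2 differences from wild type of 0.10 to 0.13 in the 5 groups, and the third with the shortest had -0.06 to -0.02. With length and GC trends removed, the log2 difference of Mki67 in Dyrk1 was 1.06 where it had been 1.20. The part of transcript length in the remaining difference was not tested.

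The genes around the members were counted from fixed lists, made with earlier results of these data known. Over all genes tested, 11.1% were higher and 6.19% lower in Dyrk1, and 16.1% and 9.41% in HDAC2. The same shares were 10.2% and 2.32% in HDAC1, 12.9% and 6.06% in Mef2c, and 13.9% and 7.95% in Mef2d. Of 67 other mitosis genes, 36 were higher and 0 lower in Dyrk1, and 0 and 48 in HDAC2. The counts were 0 and 1 in HDAC1, 0 and 16 in Mef2c, and 1 and 17 in Mef2d. Aspm, a spindle pole protein, had 0.91 in Dyrk1 (adjusted p = 0.00175), and Spc24, the partner of Spc25, had -1.28 in HDAC2 (0.00283). Pttg1, the securin that guards separase, had -1.01 in Mef2c (0.00379) and -0.9 in Mef2d (0.00796). Of 49 S phase genes tested, 14 were higher in Dyrk1 and 0 lower, and 44, 14 and 22 were lower in HDAC2, Mef2c and Mef2d with 0 higher. In HDAC1 0 of the 49 passed (limma; 8 had unadjusted p under 0.05). Their median log2 differences, not tested against the members', were 0.30 in Dyrk1, -0.54 in HDAC2, -0.35 in Mef2c and -0.42 in Mef2d. Rrm2, the ribonucleotide reductase subunit that is made in S phase, had -0.97 in HDAC2 (0.00341), -0.73 in Mef2c (0.0138) and -0.66 in Mef2d (0.0211).

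Mitosis genes that are transcribed through the whole cycle, such as cohesin and core subunits of the anaphase-promoting complex, were counted as well. Of 32, 8 were higher and 1 lower in Dyrk1 (11.1% and 6.19% of all genes), and 1 higher and 5 lower in HDAC2 (16.1% and 9.41% of all genes), with median log2 differences of 0.15 and -0.04. Their highest was Wee1, the kinase that holds Cdk1 inactive, with 0.76 ± 0.11 (SE), adjusted p = 0.000832 in Dyrk1. Nipbl, the cohesin loader, was higher in HDAC2 (0.42, adjusted p = 0.00441).

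Among the regulators of these promoters, Foxm1 was at 7.696, 5.51 and 8.67 FPKM in wild type, 12.3, 11.5 and 11.9 in Dyrk1, and 3.27, 3.78 and 3.81 in HDAC2, with log2 differences of 0.66 in Dyrk1 (adjusted p = 0.00808) and -0.83 in HDAC2 (0.00283). Mybl2 was at 8.09, 4.86 and 10.8 FPKM in wild type, 11.5, 9.76 and 11.5 in Dyrk1, and 3.29, 4.25 and 3.73 in HDAC2, with -0.85 in HDAC2 (0.00631) and -0.6 in Mef2d (0.0358). All HDAC2 libraries of both were below all wild-type libraries. Both genes are also in the list of other mitosis genes. In the list of 15 MuvB, DREAM and FoxM1 partners, 6 were higher and 0 lower in Dyrk1, against 11.1% and 6.19% of all genes. The largest differences were those of Foxm1, Rbl1 (0.56, adjusted p = 7.98e-05) and Lin9 (0.50, 0.00399). Rbl2, which encodes p130, was higher in Mef2c (0.96, adjusted p = 1.23e-06), Mef2d (0.81, 1.29e-05), HDAC2 (0.38, 0.00517) and HDAC1 (0.36, 0.0125).

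Of 7 inhibitors of cyclin-dependent kinases, 3 were higher and 1 lower in Dyrk1 (11.1% and 6.19% of all genes). In HDAC2, 0 were higher and 1 lower (16.1% and 9.41% of all genes). Cdkn2c (p18) was at 10.4, 8.73 and 12.9 FPKM in wild type, 21.5, 22.01 and 24.1 in Dyrk1, and 6.33, 8.01 and 6.97 in HDAC2, with 1.03 ± 0.14 (SE), adjusted p = 0.000679 in Dyrk1 and -0.51 in HDAC2 (0.0188). Cdkn1a (p21) was at 3.23, 2.47 and 3.897 FPKM in wild type, 5.57, 6.95 and 8.22 in Dyrk1, and 1.63, 2.78 and 1.78 in HDAC2, with 0.91 ± 0.20 (SE), adjusted p = 0.00782 in Dyrk1. The Dyrk1 libraries of both genes were above all wild-type libraries. Cdkn1c (p57) was lower in Dyrk1 (-0.9, adjusted p = 0.00166). Of the 13 G1 cyclins, kinases and their partners, 2 were higher and 1 lower in Dyrk1 (11.1% and 6.19% of all genes), and 1 higher and 2 lower in HDAC2 (16.1% and 9.41% of all genes).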

How the data were processed

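RNA from sorted YFP+ regulatory T cells of 18 mice was sequenced, with 3 mice in each of 6 groups. The deposited table holds FPKM values per Ensembl gene, a unit read from the values themselves, since nothing in the sources used here names it. Reads were aligned with STAR and counted with HTSeq on mm10, per the submitters' processing notes, with versions not given in the sources used here. How strand and multiply mapped reads were handled is likewise not given.

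The low FPKM values step by whole reads, which gave the depth of each library (15.92 to 24.09 M reads). A gene was kept where 3 or more libraries reached 1 FPKM (12223 genes), log2(FPKM + 1) was fitted with 6 group means in limma 3.58.1 (R 4.3.3, trended variance), and p-values were adjusted by Benjamini and Hochberg over all genes kept, with a threshold of 0.05. Fold changes are on this scale and understate those of low genes. All 42 members passed the filter. The model was tested on simulated data with known changes. Members, lists and alternatives were chosen with earlier results of these data known.

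Values in every library are given for the 2 highest members of each role and for the 2 largest called differences of each comparison. Alternatives were pseudocounts of 0.1 and 5 FPKM, no filter, a filter of 5 FPKM, RLE or TPM scaling, robust variance estimates, a replicate block, a fit of the compared groups alone and each library left out. Removal of length and GC trends, and leaving out 3 libraries with a mean log2 B cell marker level above 3, were added after the data had been seen. The length in that removal is that of all annotated exons joined, which for most members is not the length behind the FPKM values. Promoter sequences and starts are from RefSeq (GRCm38.p6).

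Replicate numbers are not stated to mark litters or days. Same-numbered libraries deviated together in all 3 pairs for HDAC2 and wild type (r = 0.16 to 0.33), HDAC1 and HDAC2 (0.13 to 0.43) and Mef2c and Mef2d (0.31 to 0.40). Some libraries of different number did so as well, as HDAC1 replicate 2 with Mef2d replicate 1 (r = 0.471) and HDAC1 replicate 3 with HDAC2 replicate 1 (0.328). The values therefore do not show which libraries are paired, and the main fit uses no pairing.

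Some genes of the lists are not reported here.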

Additional observations from a re-analysis of the deposited data

How the results depend on the processing

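The cause of the changes given here was not tested. Without a filter, 9 members passed as higher in Dyrk1, 10 as lower in Mef2c, 8 as lower in Mef2d and 2 as higher in HDAC1 than in HDAC2. With TPM scaling, 15 were lower in Mef2c and 12 in Mef2d, and the median of Dyrk1 against HDAC2 was 1.58. With RLE scaling, 3 were lower in HDAC1. A pseudocount of 0.1 FPKM gave a median of 1.64 for Dyrk1 against HDAC2. One of 5 FPKM gave 0.98 there, and 0.43 with 2 calls for HDAC1 against HDAC2. A filter of 5 FPKM also left 2 calls there. Fits of the compared groups alone, with fewer libraries to estimate the spread, gave 0 calls in Dyrk1, 3 in Mef2c, 3 in Mef2d and 1 for HDAC1 against HDAC2. With length and GC trends removed, 10 were higher in Dyrk1 and 3 lower in HDAC1. Leaving out the 3 libraries highest in B cell markers gave 7 in Dyrk1, 2 in Mef2c, 2 in Mef2d and 2 for HDAC1 against HDAC2.

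With single libraries left out, calls ran from 7 to 31 in Dyrk1, from 0 to 17 in HDAC1, from 29 to 42 in HDAC2, from 1 to 40 in Mef2c, from 1 to 38 in Mef2d and from 0 to 15 for HDAC1 against HDAC2. A replicate block, in which the replicate number has the same effect in all 6 groups, gave 12 calls for HDAC1 against HDAC2. For HDAC2 against wild type it gave 41. The block does not pair the libraries of any single comparison. Against wild type it gave 22 in Dyrk1, 2 in HDAC1, 29 in Mef2c and 24 in Mef2d. No member value rested on fewer than 48 reads. Over every alternative run, lower calls in HDAC2 numbered 29 to 42. Calls for Dyrk1 against HDAC2 numbered 42, or 38 where the filter of 5 FPKM kept 38 members.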
